A study of Danio rerio with 340 samples.

Results

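Hox genes encode homeodomain transcription factors that lie in clusters along a chromosome. Within a cluster the order of the genes follows the order in which they are used along the body: low-numbered paralogue groups act in the hindbrain and pharyngeal arches, middle groups in the posterior hindbrain and trunk spinal cord, and high-numbered groups in the posterior trunk, the tail and the distal fin. Zebrafish carry duplicated clusters, named here by their letters (aa, ab, ba, bb, ca, cb and da), so that 1 paralogue group can have several members. Hox proteins bind DNA with the cofactors Pbx, Meis and Pknox. Retinoic acid and Cdx factors are known to switch Hox genes on, Polycomb complexes keep them silent, and trithorax complexes keep them active.

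The members were all rows of the count table whose symbol is hox, a cluster letter from a to d, a group number and a duplicate letter, and 48 of the 31658 genes fitted this rule. They fell into clusters of 6 (aa), 5 (ab), 11 (ba), 4 (bb), 11 (ca), 4 (cb) and 7 (da) genes, and into 13 anterior (groups 1 to 4), 12 central (groups 5 to 8) and 23 posterior (groups 9 to 13) genes. The RefSeq gene table for the assembly GRCz12tu lists 49 zebrafish Hox genes. Of these, hoxa3a was not analysed here.

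RNA of 340 single whole zebrafish larvae at 5 dpf was counted with Lasy-Seq, which sequences 3′ ends of transcripts. Fertilized eggs were placed in the compound at 5 to 6 h after fertilization and kept in it, without change of medium, until sampling. Valproic acid, an anticonvulsant that inhibits histone deacetylases, was given at 0, 1, 5 and 20 µM to AB, TU, RW, WIK and PET, with 8 larvae in each of the groups. Hydroxyurea, an inhibitor of ribonucleotide reductase, was given at 0, 1.3, 6.6 and 33 mM to AB, TU, RW and PET (4 to 7 larvae), and warfarin, an inhibitor of vitamin K recycling, at 0, 150 and 300 µM to the same strains (5 to 7 larvae). AB, TU, RW and WIK are laboratory wild types, PET is a pet shop stock, and no group carries a transgene or a deletion. The compounds were dissolved in DMSO or water, and which of these each control received is not given in the sources used here. The strains of an experiment were separate clutches and each exposure was made 1 time, so strain and clutch cannot be told apart. The SDs and p-values below rest on the spread between larvae, not between repeated exposures. An SD given over all strains of a dose also holds the differences between strains. In whole larvae, fewer cells of a type and less RNA per cell cannot be told apart either.

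Hox genes were counted at low numbers. A larva had between 32 and 5560 Hox counts with a median of 749, from a total count of 124136 to 14186334 with a median of 2272278. A larva had counts for 10 to 46 of the 48 genes, with a median of 37. A level of 3 counts corresponds to 24.2 CPM (counts for every 1000000 counts of a larva) in the shallowest larva and to 1.32 CPM at the median depth, and this covers counting error only.

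The members with the most counts over all larvae were hoxc3a (23802 counts), hoxb9a (22992) and hoxb5b (21804). This is an order of how well each gene was measured, and it was not read as an order of transcript level. After the filter on low counts, 32 members were tested in all 3 experiments, and these held 95.3% of the Hox counts. Another 5 were tested in only 1 or 2 experiments (hoxa13a, hoxa13b, hoxb13a, hoxc9a and hoxd13a). The other 11 were tested in none of the comparisons over strains and held 0.901% of the Hox counts: hoxa1a, hoxa5a, hoxa11a, hoxb1a, hoxb4a, hoxb8b, hoxc4a, hoxc6a, hoxc8a, hoxc12a and hoxc13a, with 62 to 523 counts each.

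Neighbouring Hox genes can share transcribed sequence. In the RefSeq table, 17 members overlap another Hox gene: hoxb3a spans hoxb4a, hoxb5a and hoxb6a, hoxc3a spans hoxc4a, hoxc5a, hoxc6a, hoxc8a and hoxc9a, hoxb1b spans hoxb5b and hoxb6b, and hoxd3a and hoxd4a overlap each other. The overlap of hoxa4a and hoxa5a is with hoxa3a. Reads from such pairs could have been split between them, and the values of these genes are uncertain to that extent. Sums over a cluster are less affected, because the overlapping genes lie within 1 cluster. This does not hold for the anterior, central and posterior classes. The anterior genes hoxb1b, hoxb3a and hoxc3a overlap central genes, and hoxc3a also overlaps the posterior gene hoxc9a. Counts and sums by class are uncertain to that extent.

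In the main fits by edgeR, valproic acid at 20 µM was the only exposure in which more than 1 Hox gene passed the test over strains, and all of those rose. Alternative settings gave 0 to 2 calls at 33 mM hydroxyurea, 0 to 4 at 300 µM warfarin and 8 to 14 at 20 µM valproic acid. The share of all genes called also changes with the setting, so these counts are not compared between settings or compounds. Of 37 tested members, 13 were higher than at 0 and 0 were lower (edgeR's quasi-likelihood test, Benjamini-Hochberg adjusted p under 0.05 over all 18192 tested genes, 40 larvae against 40 from 5 strains). Over all tested genes, 8.99% were higher and 20.5% were called in either direction. The median log2 fold change was 0.31 over the tested Hox genes and 0.09 over all genes. The genes that rose were mostly those of the hindbrain and anterior trunk groups: 7 of 9 tested anterior members, 5 of 8 central members and 1 of 20 posterior members.

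The summed level of the 48 Hox genes was 341 ± 64.0 CPM (mean ± SD, n = 40) in untreated larvae and 472 ± 111 CPM (n = 40) at 20 µM. CPM here and below were normalised by trimmed means of M-values (TMM). Untreated larvae ranged from 206 to 492 CPM with a median of 346 CPM, and those at 20 µM from 283 to 758 CPM with a median of 476 CPM. The groups overlapped, and 16 of 40 exposed larvae lay above every untreated larva.

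The anterior and central sums lay further apart between 0 and 20 µM than the posterior sum did. Median log2 fold changes were 0.56 for tested anterior, 0.64 for central and 0.11 for posterior members. Anterior members summed to 117 ± 20.4 CPM at 0 and 176 ± 54.5 CPM at 20 µM, where 27 of 40 larvae lay above every untreated larva. Central members summed to 89.7 ± 28.8 CPM and 141 ± 46.2 CPM, with 18 of 40 above every untreated larva. Posterior members summed to 134 ± 30.2 CPM and 156 ± 28.2 CPM, with 1 of 40 above. The ranges of the posterior sum thus overlapped almost wholly, while most exposed larvae lay outside the untreated range of the anterior sum. These counts depend on the single highest untreated larva, with 164 CPM for the anterior and 231 CPM for the posterior sum. The posterior median was also higher, with 134 CPM at 0 and 156 CPM at 20 µM, against 117 and 184 CPM for the anterior sum.

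**Figure D1:**
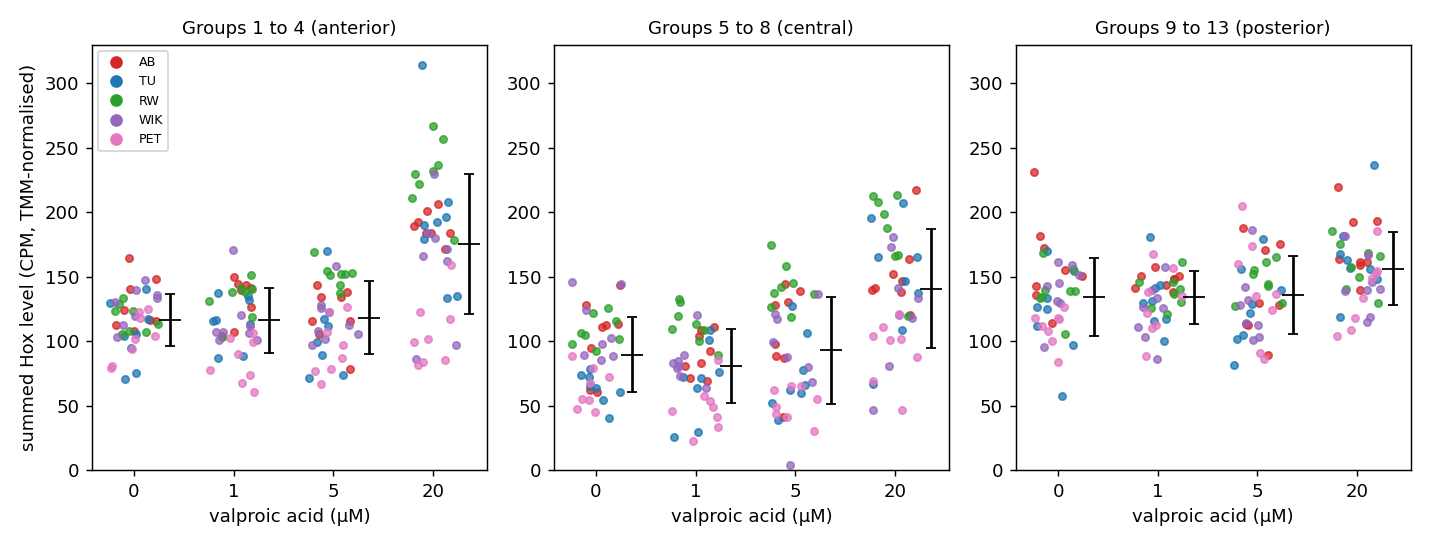
Summed level of the Hox genes of groups 1 to 4, 5 to 8 and 9 to 13 (CPM after TMM normalisation) in each larva at 0, 1, 5 and 20 µM valproic acid. Each point is 1 larva coloured by strain, bars are mean ± SD over 40 larvae, and at 20 µM the anterior sum of 27 of 40 larvae lies above every untreated larva against 1 of 40 for the posterior sum. The highest untreated larva had 164 CPM for the anterior and 231 CPM for the posterior sum.

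**Figure D2:**
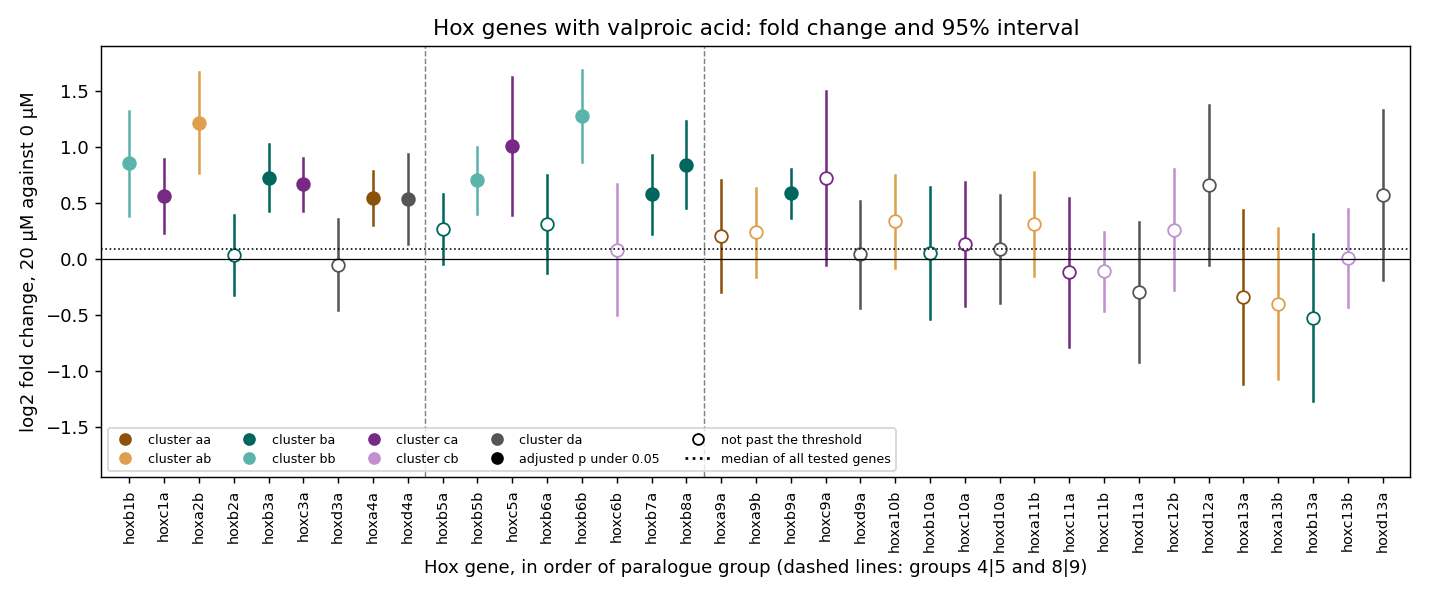
Log2 fold change at 20 µM valproic acid against 0 with its 95% interval for the 37 tested Hox genes in order of paralogue group, coloured by cluster. Filled points passed the test (adjusted p under 0.05), the dotted line is the median of all tested genes (0.09), and 12 of the 13 filled points lie in groups 1 to 8.

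Groups 1 and 2 pattern the hindbrain segments and the pharyngeal arches. hoxb1b, of the group that sets up the rhombomeres of the anterior hindbrain, ranged from 0 to 23.4 CPM with a median of 6.23 CPM in untreated larvae and from 0 to 36.5 CPM with a median of 12.1 CPM at 20 µM. It was higher by 0.85 on the log2 scale (SE 0.24, adjusted p = 0.00391). The ranges overlapped almost wholly, and 6 of 40 exposed larvae lay above every untreated larva.

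hoxc1a, of the same group, ranged from 1.13 to 32.3 CPM with a median of 15.0 CPM at 0 and from 1.88 to 50.2 CPM with a median of 20.8 CPM at 20 µM. Its log2 fold change was 0.56 (SE 0.17, adjusted p = 0.00829).

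hoxa2b specifies the identity of the hyoid arch in zebrafish. Its level ranged from 0 to 12.3 CPM with a median of 4.89 CPM in untreated larvae. At 20 µM it ranged from 0 to 27.3 CPM with a median of 12.6 CPM. Of the exposed larvae, 22 of 40 lay above every untreated larva, although the lowest exposed larvae had no count. The log2 fold change was 1.22 (SE 0.23, adjusted p = 5.69e-06). The other tested member of group 2, hoxb2a, had a log2 fold change of 0.04 (adjusted p = 0.923) with a 95% interval that ended at 0.39.

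Groups 3 and 4 act in the posterior hindbrain. hoxc3a, the member with the most counts, ranged from 10.5 to 38.8 CPM with a median of 24.04 CPM at 0, and from 9.35 to 65.9 CPM with a median of 37.2 CPM at 20 µM. It was higher by 0.66 on the log2 scale (SE 0.12, adjusted p = 1.91e-06), and 19 of 40 exposed larvae lay above every untreated larva. hoxb3a ranged from 6.76 to 38.5 CPM with a median of 17.8 CPM at 0 and from 6.28 to 81.0 CPM with a median of 27.8 CPM at 20 µM. Its log2 fold change was 0.72 (SE 0.15, adjusted p = 6e-05), with 10 of 40 exposed larvae above every untreated larva. The third member of the group, hoxd3a, had a log2 fold change of -0.05 (adjusted p = 0.894).

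Both tested members of group 4 rose. hoxa4a ranged from 5.71 to 35.8 CPM with a median of 17.6 CPM at 0 and from 7.63 to 54.95 CPM with a median of 25.1 CPM at 20 µM, a log2 fold change of 0.54 (SE 0.12, adjusted p = 0.000218). hoxd4a had a log2 fold change of 0.53 (SE 0.20, adjusted p = 0.0488). That call lies just under the threshold and did not pass it in 6 of 12 alternative settings.

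Groups 5 to 8 act in the trunk, in its spinal cord and mesoderm. The member with the lowest adjusted p of all was hoxb6b, which ranged from 0 to 19.0 CPM with a median of 8.31 CPM in untreated larvae and from 0 to 44.4 CPM with a median of 22.6 CPM at 20 µM. It was higher by 1.27 on the log2 scale (SE 0.21, adjusted p = 1.86e-07), and 26 of 40 exposed larvae lay above every untreated larva. Its log2 fold change within strains ranged from 1.08 in PET to 1.37 in WIK.

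hoxb5b, a gene of the hindbrain to spinal cord transition that also limits the number of heart progenitors in zebrafish, ranged from 5.89 to 44.1 CPM with a median of 21.7 CPM at 0. At 20 µM it ranged from 3.37 to 61.9 CPM with a median of 32.1 CPM. Its log2 fold change was 0.70 (SE 0.15, adjusted p = 0.000101), with 11 of 40 exposed larvae above every untreated larva. hoxb8a ranged from 0.731 to 25.3 CPM with a median of 12.4 CPM at 0 and from 0 to 59.6 CPM with a median of 19.4 CPM at 20 µM, a log2 fold change of 0.84 (SE 0.20, adjusted p = 0.000433). Its levels by strain are described further on.

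hoxc5a and hoxb7a also rose, by 1.01 (SE 0.32, adjusted p = 0.0119) and by 0.57 (SE 0.18, adjusted p = 0.0122) on the log2 scale. hoxc5a was measured thinly, with a median of 2.97 CPM at 0 and 5.86 CPM at 20 µM. The tested central members that did not pass the test were hoxb5a, hoxb6a and hoxc6b, with log2 fold changes of 0.27, 0.31 and 0.08.

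Among the posterior genes, only hoxb9a, of the group that marks the thoracic trunk, passed the test. It ranged from 11.3 to 66.6 CPM with a median of 28.3 CPM in untreated larvae and from 14.1 to 94.1 CPM with a median of 41.6 CPM at 20 µM. The log2 fold change was 0.58 (SE 0.11, adjusted p = 9.14e-06), and 3 of 40 exposed larvae lay above every untreated larva. The ranges overlapped almost wholly while the medians lay apart.

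The genes of groups 10 to 13, which pattern the tail end and the distal fin, gave 0 calls of 15 tested by edgeR, 0 of these with an unadjusted p under 0.05, and 0 by DESeq2. Of all genes, 8.99% were higher and 20.5% were called in either direction, so 0 of 15 lies near the share called higher. Without the shallow larvae, those under 0.5 times the median total count, 1 gene of these groups was called lower (hoxb13a, -0.97, adjusted p = 0.0341). With all larvae its log2 fold change was -0.52 (SE 0.38, adjusted p = 0.361). Sums over these groups were 25.7 ± 10.7 and 28.8 ± 12.3 CPM for group 10, 25.4 ± 9.55 and 25.2 ± 9.24 CPM for group 11 and 21.2 ± 9.48 and 19.7 ± 7.92 CPM for group 13, at 0 and 20 µM in turn (mean ± SD, n = 40 each). The 2 tested members of group 12, hoxc12b and hoxd12a, had log2 fold changes of 0.26 and 0.66 (adjusted p = 0.563 and 0.205 by edgeR).

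The posterior genes also had fewer counts, which limits what could be seen. Tested posterior members had a median of 1274.5 counts over the larvae at 0 and 20 µM together and a median SE of 0.28, against 2664 counts and 0.183 for anterior and 4090.5 counts and 0.205 for central members. The 12 members of groups 1 to 8 that rose had a median log2 fold change of 0.71. These members were chosen by the same test, so 0.71 can lie too high. Medians over all tested anterior and central members were 0.56 and 0.64. The 95% intervals of 13 of the 19 posterior members without a call lay below 0.71 and those of the other 6 held it, and the intervals of all 19 held 0. For those 6 a rise of 0.71 was thus not excluded, among them hoxc9a (0.72, adjusted p = 0.201) and hoxd12a (0.66, adjusted p = 0.205). The intervals were not set against smaller rises, so no conclusion on these is drawn for the other 13. The difference between the groups of members was not tested.

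**Figure D3:**
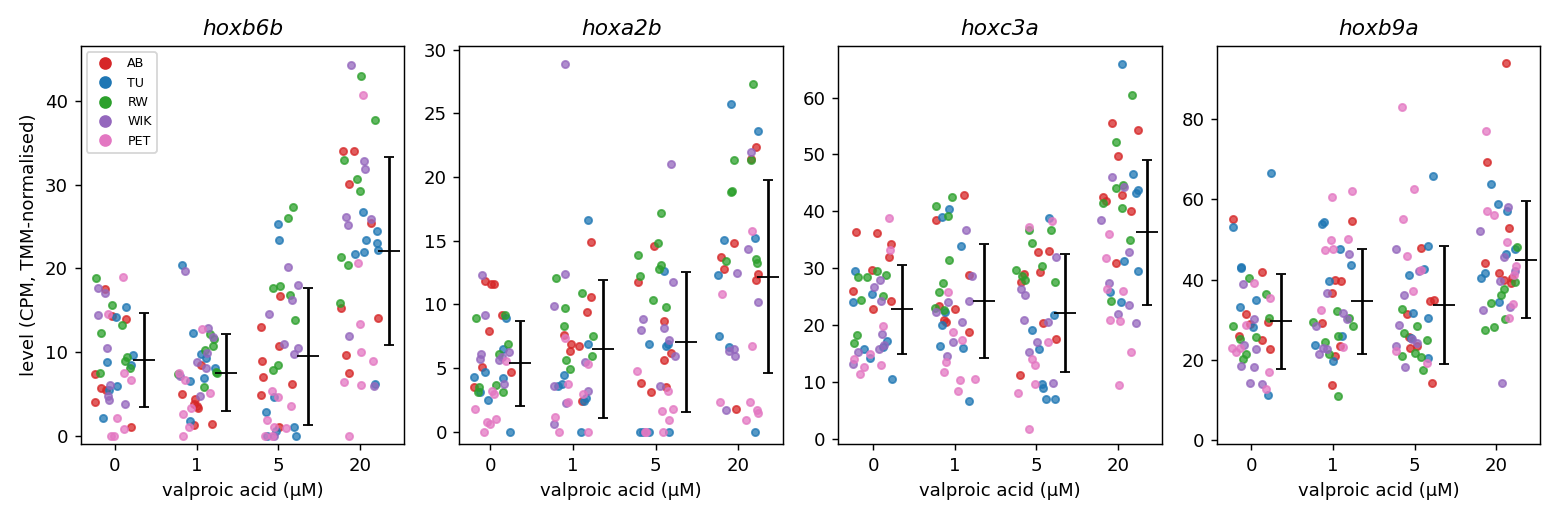
Levels of hoxb6b, hoxa2b, hoxc3a and hoxb9a (CPM after TMM normalisation) in each larva at 0, 1, 5 and 20 µM valproic acid. Points are larvae coloured by strain and bars are mean ± SD over 40 larvae. At 20 µM, 26, 22, 19 and 3 of 40 larvae lie above every untreated larva for the 4 genes in turn.

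By cluster, all 3 tested members of bb rose (hoxb1b, hoxb5b and hoxb6b), and the summed level of this cluster was 38.2 ± 15.4 CPM at 0 and 69.5 ± 21.7 CPM at 20 µM. In the RefSeq table hoxb1b overlaps both hoxb5b and hoxb6b, which do not overlap each other. Reads could have been split between them, so the 3 may not be fully separate measurements. In ca 3 of 6 tested members rose, in ba 4 of 9, in aa 1 of 3, in ab 1 of 5 and in da 1 of 7. Of all genes, 8.99% were higher and 20.5% were called in either direction. In cb none of the 4 tested members was called (0 by edgeR, 0 at an unadjusted p under 0.05 and 0 by DESeq2), and its sum was 27.3 ± 10.9 CPM at 0 and 27.6 ± 11.8 CPM at 20 µM. All 4 tested genes of cb are of groups 6 to 13 (hoxc6b, hoxc11b, hoxc12b and hoxc13b), so cluster and group cannot be told apart there. The same holds for bb, whose tested genes are all anterior or central. Tested genes of ab and da are mostly posterior.

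Over strains, no member was called below 20 µM. At 1 µM 0 of 37 members were called by edgeR, 1 had an unadjusted p under 0.05, and 0 were called by DESeq2, where 0.0055% of all genes were called. At 5 µM 0 of 37 were called, 0 had an unadjusted p under 0.05, and 0 were called by DESeq2, where 2.37% of all genes were called. The 13 genes that rose at 20 µM had a median log2 fold change of -0.10 at 1 µM (5 of 13 above 0), 0.04 at 5 µM (7 of 13) and 0.70 at 20 µM, where the last value is the one that chose them. The summed Hox level was 331 ± 58.4 CPM at 1 µM and 347 ± 80.2 CPM at 5 µM (n = 40 each), and no larva at these doses lay above every untreated larva.

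By strain, the summed levels lay furthest apart in TU and RW. RW larvae had 366 ± 20.1 CPM at 0 and 573 ± 71.8 CPM at 20 µM (n = 8 each), and all 8 exposed larvae lay above every RW control. TU larvae had 291 ± 49.9 and 509 ± 114 CPM, again with all 8 above. AB larvae had 393 ± 60.2 and 515 ± 46.7 CPM with 4 of 8 above. PET larvae had 278 ± 33.0 and 338 ± 41.4 CPM with 5 of 8 above, and WIK larvae had 377 ± 50.02 and 427 ± 88.6 CPM with 3 of 8 above. The mean of the sum was thus higher at 20 µM in each of the 5 strains. In WIK, however, the median log2 fold change was -0.04 over the tested Hox genes and 0.10 over all genes. There 18 tested members lay above 0 and 20 below. RW was also the strain in which the 8 larvae at 5 µM all lay above every RW control (442 ± 28.0 CPM), and this group had the highest median total count of any (8871990.5, from 7746239 to 14186334). The part of depth in this was not tested.

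Tested gene by gene, TU had 7 members higher and 1 lower of 38 tested (all genes: 3.74% higher, 3.2% lower and 6.94% in either direction), and RW had 4 higher (2.26% higher, 6.67% in either direction). WIK had 2 higher (5.68% and 12.1%) and PET 1 (1.26% and 6.77%). AB had 0 by edgeR, with 11 members at an unadjusted p under 0.05 and 4 called by DESeq2, where edgeR called 1.32% of all genes higher and 5.8% in either direction. The members called in TU were hoxa2b, hoxa4a, hoxb1b, hoxb5b, hoxb7a, hoxb8a and hoxc3a, in RW hoxa2b, hoxb3a, hoxb6b and hoxc3a, in WIK hoxb6b and hoxb9a, and in PET hoxb9a. In TU and RW all tested anterior and central members had fold changes above 0 (17 of 17 in each), and in AB, WIK and PET 15, 11 and 10 of 17 did. Of 21 tested posterior members, 11 in AB, 16 in TU, 15 in RW, 7 in WIK and 14 in PET had fold changes above 0. In PET the posterior members had the highest median, with median log2 fold changes of 0.08 for anterior, 0.26 for central and 0.37 for posterior members.

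Of the 13 genes that rose over all strains, 9 had a fold change above 0 in every strain. The exceptions were hoxb8a, with values just under 0 in WIK and PET, hoxb1b (-0.60 in PET), hoxc1a (-0.37 in PET) and hoxd4a (-0.22 in WIK). Without RW the count over strains fell from 13 to 8 (15.5% of all genes called), and without AB it was 9 (share of all genes not given here). The genes called without RW were hoxa2b, hoxa4a, hoxb5b, hoxb6b, hoxb7a, hoxb8a, hoxb9a and hoxc3a, all among the 13. Of the 13, 6 were called in all 12 alternative settings: hoxa2b, hoxa4a, hoxb5b, hoxb6b, hoxb9a and hoxc3a.

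The member that was lower in TU was hoxc13a, a tail gene at the limit of detection. Untreated TU larvae held 25 counts in 3 of 8 larvae, with 7.89 CPM in the highest and 0.705 CPM in the next, and the 8 larvae at 20 µM held 0. Against the floor of 3 counts over the group, the pooled level was at least 9.74-fold lower, but it rests on 1 control larva.

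By edgeR, hoxb8a was the only member whose response was found to differ between strains (1 of 38 by the test of strain by dose, F = 4.25, adjusted p = 0.0402, where 7.49% of all genes were called), and DESeq2 called 4 members. Its level in TU ranged from 0.943 to 18.3 CPM with a median of 4.39 CPM at 0 and from 10.8 to 46.1 CPM with a median of 34.9 CPM at 20 µM, a log2 fold change of 2.07 (SE 0.44, adjusted p = 0.00028). In RW it ranged from 4.05 to 23.0 CPM with a median of 17.2 CPM at 0 and from 23.4 to 50.05 CPM with a median of 36.7 CPM at 20 µM, and the groups did not overlap. The log2 fold change in RW was 1.17 (SE 0.40, adjusted p = 0.0535).

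In AB the hoxb8a value was 0.66 (SE 0.41, adjusted p = 0.453), in WIK -0.05 (SE 0.41, adjusted p = 0.962) and in PET -0.04 (SE 0.49, adjusted p = 0.982). WIK larvae had medians of 17.5 CPM at 0 and 17.2 CPM at 20 µM, and PET larvae 6.33 and 6.59 CPM. TU and PET had the lowest medians in untreated larvae, and at 20 µM the TU median lay near that of RW while the PET median lay close to its control. The difference between strains was no longer past the threshold with total count as a covariate (adjusted p = 0.202) or on total counts without TMM (adjusted p = 0.0799). Leaving out the shallow larvae kept only larva 7 of PET at 20 µM, so that setting could not decide on the difference.

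**Figure D4:**
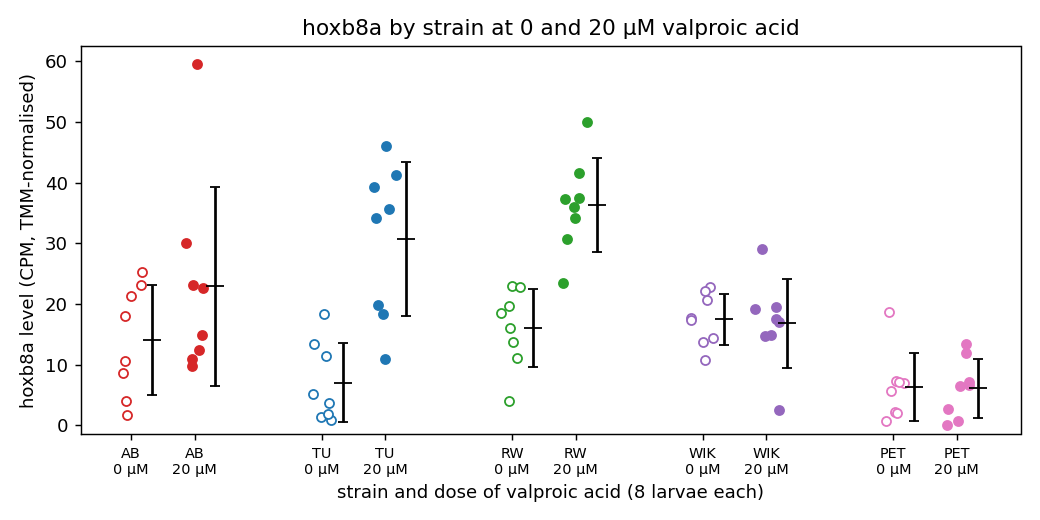
Level of hoxb8a (CPM after TMM normalisation) in each larva of 5 strains at 0 (open points) and 20 µM (filled points) valproic acid, with mean ± SD over 8 larvae. The exposed RW larvae lie above every RW control, 7 of 8 exposed TU larvae lie above every TU control, and WIK and PET larvae overlap their controls.

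Untreated larvae of the valproic acid experiment differed between strains in 13 of 36 tested members, where 44.3% of all genes did. These were hoxa2b, hoxa9b, hoxa10b, hoxa13a, hoxb5a, hoxb7a, hoxb8a, hoxb9a, hoxb10a, hoxb13a, hoxc6b, hoxc9a and hoxd10a. Strains also differed in depth, with median total counts from 1557113 in PET to 4535022.5 in RW, and with the total count as a covariate the count was 1. Strain and depth go together in these larvae, so this covariate can also take up differences between strains, in any gene. The share of all genes called with it is not given here, and the part of depth in the Hox differences was not tested. The untreated larvae of the hydroxyurea experiment differed in 1 of 35 (hoxa4a, adjusted p = 0.0172, all genes: 12%), from 15.2 ± 2.42 CPM in TU (n = 6) to 28.2 ± 7.58 CPM in AB (n = 7). Those of the warfarin experiment differed in 0 of 27 by edgeR, with 1 at an unadjusted p under 0.05 and 1 by DESeq2, where 5.98% of all genes did.

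Over strains, edgeR called no Hox gene with hydroxyurea. At 33 mM 0 of 36 tested members passed edgeR's test, although 22.8% of all 15042 genes did, and 2 members had an unadjusted p under 0.05. DESeq2 called 2, hoxb2a and hoxb1b. These genes of the hindbrain groups had log2 fold changes of 0.41 (SE 0.17, adjusted p = 0.0682) and 0.46 (SE 0.21, adjusted p = 0.102) by edgeR. Levels of hoxb2a ranged from 0.823 to 17.5 CPM with a median of 7.46 CPM in 24 untreated larvae and from 1.28 to 20.1 CPM with a median of 8.98 CPM in 26 larvae at 33 mM, so the groups overlapped almost wholly.

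The summed Hox level was 314 ± 32.2 CPM at 0 (n = 24) and 333 ± 36.1 CPM at 33 mM (n = 26), with 3 larvae above every untreated larva. The strains went different ways. RW larvae had 309 ± 26.7 CPM at 0 (n = 4), 357 ± 9.37 CPM at 6.6 mM (n = 7) and 376 ± 28.05 CPM at 33 mM (n = 7), with 5 of 7 and 6 of 7 exposed larvae above every RW control. AB larvae had 327 ± 52.6 CPM at 0 and 310.3 ± 27.8 CPM at 33 mM (n = 7 each), with 0 of 7 above. In TU and PET the means were 301 and 316 CPM at 0 and 320.0 and 323 CPM at 33 mM, with 3 of 7 and 2 of 5 above. In PET all 7 larvae at 1.3 mM lay below every PET control (284 ± 4.78 against 316 ± 14.6 CPM). The difference between strains in these sums was not tested. Over strains, anterior members summed to 107 ± 15.7 and 118 ± 23.8 CPM, central members to 92.5 ± 15.3 and 96.1 ± 16.2 CPM, and posterior members to 114 ± 16.3 and 119 ± 13.1 CPM. The median log2 fold change over the tested members was 0.08, against 0.02 over all genes. The 95% intervals of 34 of the 36 members lay between -1 and 1 on the log2 scale. Smaller changes were not detectable for the thinner genes, since the SE ranged up to 0.39.

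At the lower doses of hydroxyurea 0 of 36 members were called by edgeR and 0 by DESeq2, with 2 (1.3 mM) and 1 (6.6 mM) at an unadjusted p under 0.05, where 0.00665% and 1.15% of all genes were called. Within strains, AB, TU and PET gave 0 of 36 by edgeR, with 5, 2 and 0 at an unadjusted p under 0.05 and 1, 0 and 0 by DESeq2 (all genes in either direction: 7.24%, 6% and 9.42%). RW gave 1 by edgeR and 2 by DESeq2, with 8 at an unadjusted p under 0.05 and 28 of 36 fold changes above 0 (all genes called: 6.13%). The call by edgeR was the tail gene hoxc13b. It ranged from 0 to 1.70 CPM with a median of 0.763 CPM in 4 untreated RW larvae, and from 1.41 to 5.36 CPM with a median of 4.24 CPM in the 7 larvae at 33 mM. The log2 fold change was 2.14 (SE 0.67, adjusted p = 0.0334) on 9 counts in the controls, and it was not past the threshold when untreated larva 1, 2 or 4 was left out (adjusted p of 0.106 to 0.118). The test of strain by dose gave 0 of 36 by edgeR (0.777% of all genes), with 2 at an unadjusted p under 0.05 and 1 by DESeq2.

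Warfarin at 300 µM gave 1 call of 32, where 4.64% of all 13482 genes were higher and 9.6% were called in either direction. This was hoxb5b, which ranged from 9.78 to 32.7 CPM with a median of 19.3 CPM in 25 untreated larvae and from 15.2 to 45.9 CPM with a median of 25.9 CPM in 25 larvae at 300 µM. The log2 fold change was 0.41 (SE 0.14, adjusted p = 0.0356), with a value above 0 in each of 4 strains and 6 of 25 exposed larvae above every untreated larva. The call was lost without AB (adjusted p = 0.262), without PET (adjusted p = 0.0876), without TU (adjusted p = 0.117) and without shallow larvae (adjusted p = 0.055). By edgeR, hoxb6b was called instead without TU (0.62, adjusted p = 0.0396) and without shallow larvae (0.65, adjusted p = 0.0333).

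hoxc3a came next with 0.35 (SE 0.12, adjusted p = 0.0538), from medians of 20.6 CPM at 0 and 25.9 CPM at 300 µM. The summed Hox level was 283 ± 27.7 CPM at 0 and 322 ± 28.4 CPM at 300 µM (n = 25 each), with 7 of 25 exposed larvae above every untreated larva. Anterior members summed to 92.7 ± 19.0 and 113 ± 14.0 CPM, central members to 84.4 ± 16.1 and 99.7 ± 15.6 CPM, and posterior members to 106 ± 16.7 and 109 ± 16.2 CPM. The median log2 fold change was 0.17 over the tested members and 0.0038 over all genes (0.32, 0.21 and 0.01 for anterior, central and posterior members in turn). A share of 1 in 32 members lay below the share called among all genes.

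At 150 µM 0 of 32 members were called by edgeR and 0 by DESeq2, with 2 at an unadjusted p under 0.05 (all genes: 3.18%). Within AB, TU, RW and PET 0 of 34 were called by edgeR and 0 by DESeq2, with 0, 3, 3 and 4 at an unadjusted p under 0.05 (all genes: 2.7%, 3.03%, 1.91% and 0.884%). The test of strain by dose gave 0 of 34 by either tool, with 1 at an unadjusted p under 0.05 (0.391%).

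Side by side, the 13 members that rose with valproic acid had median log2 fold changes of 0.70 with 20 µM valproic acid, which chose them, 0.17 with 33 mM hydroxyurea (from -0.09 to 0.46) and 0.21 with 300 µM warfarin (from -0.23 to 0.52). The doses and the larvae differ, so no test between the compounds was made. hoxb6b had 1.27, 0.17 and 0.33, and hoxa2b had 1.22, 0.28 and -0.23, in this order of compounds. hoxb9a had 0.58, 0.23 and 0.12.

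**Figure D5:**
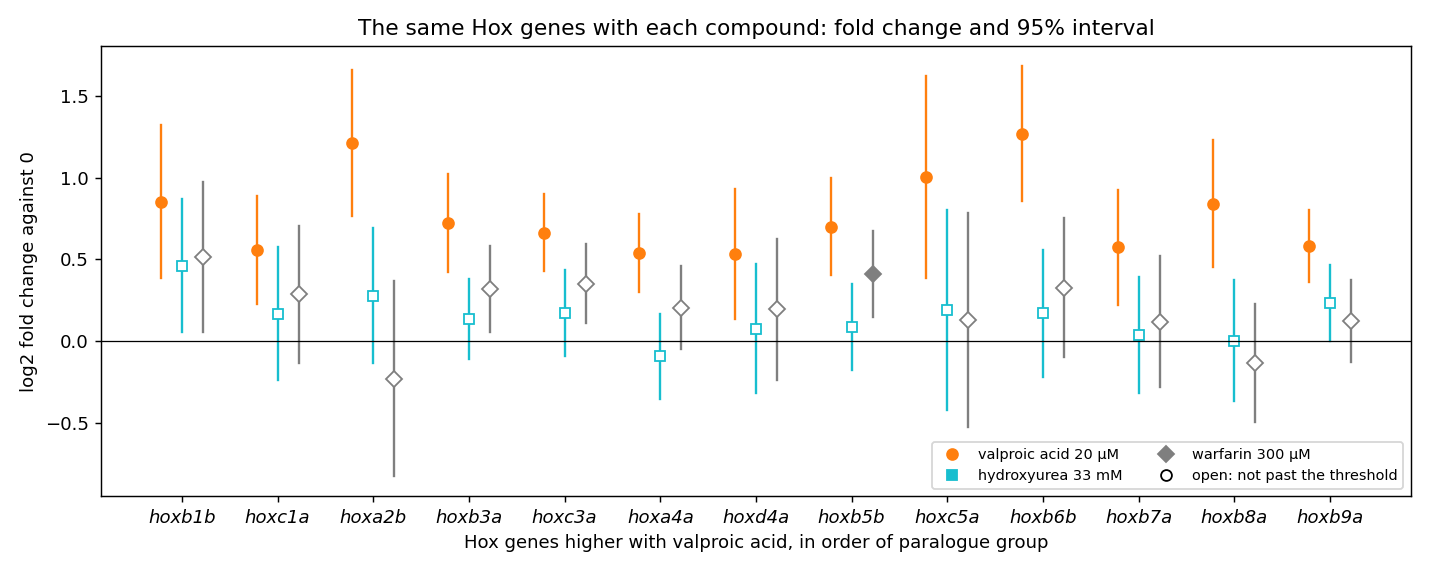
Log2 fold change at the highest dose of valproic acid (20 µM), hydroxyurea (33 mM) and warfarin (300 µM) against untreated larvae, with 95% intervals, for the 13 Hox genes that rose with valproic acid. Filled symbols passed the test (adjusted p under 0.05). With hydroxyurea none did, and with warfarin only hoxb5b did, at 0.41.

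Lists of genes that work with Hox genes or regulate them were read in the same fits. Of the Hox cofactors, 4 of 10 tested rose and 0 fell at 20 µM valproic acid, with a list median of 0.19 against 0.09 for all genes. Of all genes, 8.99% were higher and 20.5% were called in either direction. meis1a (0.52, adjusted p = 0.0187) and meis1b (0.35, adjusted p = 0.0095), which encode partners of Hox proteins, were among those that rose, with pbx4 and pknox2. The cofactors with the most counts, meis2a (0.16, adjusted p = 0.294) and pbx3b (-0.05, adjusted p = 0.792), did not pass the test. With hydroxyurea 1 of 9 rose (meis1a) and 1 fell (pbx3b, -0.40, adjusted p = 0.000114), with warfarin 0 of 9 were called by edgeR with 1 at an unadjusted p under 0.05 (not counted by DESeq2), and the medians were 0.02 and -0.03. Of all genes, 22.8% and 9.6% were called in either direction with these compounds, so the hydroxyurea count lay near that share.

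Of the retinoic acid and Cdx regulators, 4 of 22 rose and 1 fell with valproic acid, near the 20.5% called among all genes, and the list median of 0.02 lay under the 0.09 of all genes. The 4 were cyp26a1, which degrades retinoic acid (1.04, adjusted p = 0.00015), and the retinoic acid binding proteins crabp1a, crabp1b and crabp2b (0.75, 1.08 and 0.32). The one that fell was aldh1a3, a retinoic acid synthesis enzyme (-0.66, adjusted p = 0.037), whereas aldh1a2, the main synthesis enzyme of the trunk and the gene of the list with the most counts, had -0.06 (adjusted p = 0.764), and cyp26b1 had -0.15 (adjusted p = 0.509). With hydroxyurea 2 of 21 rose and 1 fell (22.8% of all genes called, medians 0.10 for the list and 0.02 for all genes). With warfarin 1 of 20 rose (cyp26a1, 1.05, adjusted p = 0.00289), where 9.6% of all genes were called, with medians of -0.01 and 0.0038.

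Of the Polycomb and trithorax genes, 3 of 23 rose and 0 fell with valproic acid, where 8.99% of all genes were higher and 20.5% were called in either direction, and the list median of 0.01 lay under the 0.09 of all genes. These were bmi1a (1.13, adjusted p = 8.01e-10), bmi1b (0.51, adjusted p = 0.0088) and cbx2 (0.61, adjusted p = 0.00248), which encode subunits of Polycomb repressive complex 1. The genes of this list with the most counts, rbbp4 and rnf2, had 0.20 and -0.02 with adjusted p of 0.272 and 0.909. With hydroxyurea 3 of 20 rose and 1 fell, rbbp4 among the former (0.86, adjusted p = 8.18e-15), with a list median of -0.06 against 0.02 for all genes, of which 22.8% were called. With warfarin 1 of 18 rose, again rbbp4 (0.43, adjusted p = 0.000166), with a median of 0.04, where 9.6% of all genes were called.

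Markers of other cell types were measured in the same larvae. At 20 µM valproic acid, 8.99% of all genes were higher and 20.5% were called in either direction. With valproic acid, 6 of 10 neural progenitor markers rose and 0 fell, and their summed level was 784 ± 258 CPM at 0 and 1128 ± 531 CPM at 20 µM. By strain it was 1042 and 2022 CPM in RW, 579 and 1000.0 CPM in TU and 455 and 652 CPM in PET, with 8, 7 and 7 of 8 exposed larvae above every control of their strain. It was 932 and 976 CPM in AB and 910 and 990 CPM in WIK, with 1 and 3 above. fabp7a, a radial glia gene, rose by 0.68 (adjusted p = 1.25e-06), and pcna, a gene of dividing cells, had 0.02 (adjusted p = 0.945).

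Of 10 tested markers of spinal and hindbrain neurons, 3 rose with valproic acid (isl1 by 0.49, phox2bb by 0.30 and evx2 by 0.81) and 1 fell (chata). This count and those of the next 2 lists stand beside 8.99% of all genes higher and 20.5% called in either direction. Their sum was 134 ± 18.7 CPM at 0 and 148 ± 25.5 CPM at 20 µM. evx2 lies next to the hoxd genes. Of 12 pan-neuronal markers 0 rose and 4 fell, stmn2a by 0.72, with snap25a, syt1a and nefmb, while tubb5 had 0.06 (adjusted p = 0.802), with sums of 1072 ± 193 and 899 ± 230 CPM. Of 8 tested fin markers 3 rose and 2 fell (and2 by 0.75 and and1 by 0.28). Their sum was 1268 ± 270 and 931 ± 150 CPM. The part of these cell types in the Hox result was not tested.

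All 12 exocrine pancreas markers fell at the highest dose of each compound. Of all genes, 20.5% (valproic acid), 22.8% (hydroxyurea) and 9.6% (warfarin) were called there in either direction. Their summed ranges were 1854 to 31340 CPM at 0 and 306 to 1811 CPM at 20 µM valproic acid, 5249 to 11950 and 216 to 3352 CPM at 0 and 33 mM hydroxyurea, and 4225 to 18130 and 1035 to 6600 CPM at 0 and 300 µM warfarin. ctrb1 and prss59.2, proteases of the gut lumen, fell by 3.91 and 3.52 with valproic acid, by 3.48 and 2.79 with hydroxyurea and by 1.499 and 1.36 with warfarin. The part of this loss in the Hox values was not tested.

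With hydroxyurea, 3 of 10 neural progenitor markers rose, 7 of 12 pan-neuronal markers fell, and 2 of 10 spinal and hindbrain neuron markers fell (isl1 by 0.70). Of all genes, 22.8% were called in either direction at 33 mM, and the progenitor and the spinal and hindbrain counts lay near that share. The progenitor sum was 820 ± 94.9 CPM at 0 and 1112 ± 248 CPM at 33 mM, with 14 of 26 above every control, so its mean was higher there as well. Of 8 fin markers 3 rose. With warfarin 1 of 10 progenitor markers rose (pcna, 0.34) and 0 of 11 pan-neuronal, 0 of 9 spinal and hindbrain neuron and 0 of 8 fin markers were called by edgeR, with 2, 0 and 0 at an unadjusted p under 0.05 (not counted by DESeq2). Of all genes, 9.6% were called in either direction at 300 µM.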

How the data were processed

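The authors deposited 1 table of estimated counts for 31658 genes and 340 larvae, not normalised. Reads came from paired-end Lasy-Seq libraries, in which each larva is indexed at reverse transcription. The submitters' processing notes name GRCz11 and Seurat 5.1.0, and the aligner and counter are not given in the sources used here. In all, 52 values in 34 genes and 24 larvae were not whole, 0 of them in Hox genes, and were rounded. Larvae were grouped by the strain, compound, dose and number in their labels, and 0 columns belonged to other samples.

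Each experiment was fitted alone in R 4.3.3 with edgeR 4.0.16 and limma 3.58.1: filterByExpr (minimum count 10, minimum total 15), TMM, and the quasi-likelihood test, with Benjamini-Hochberg adjustment over all genes tested (threshold 0.05). Dose effects over strains came from strain plus dose, within-strain and interaction tests from a mean for each strain and dose, and strain differences from untreated larvae alone. Intervals are the estimate with 1.96 SE on each side. Levels are CPM on TMM-scaled library sizes. The tests were tested on simulated data.

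Without TMM factors, the median of all genes at 20 µM valproic acid would lie 0.158 higher on the log2 scale, so changes are given on the TMM scale. Alternatives were DESeq2 1.42.0, its size factors in edgeR, no filter, the larva number as a block and the total count as a covariate. Others left out shallow larvae (total count under 0.5 times the median) or each strain. Each larva of untreated and highest-dose groups of 5 or fewer was also left out in turn. Total counts without TMM were added after the data had been seen. The members, lists and named genes were chosen with earlier results of these data known. Described in full were members called at a highest dose (up to 10 for each compound by adjusted p) and the 3 with the most counts, and, of other lists, the 2 genes with the most counts. Others named are genes counted in the text, chosen after their values were seen.

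Gene names and overlaps of genes came from the RefSeq table of another assembly (GRCz12tu), so no coordinates are given. Counts without molecular identifiers are not separate molecules.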

Additional observations from a re-analysis of the deposited data

Results flagged for a closer look

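The summed Hox level was examined for single larvae far from the others in 48 groups of the same strain and dose, where chance alone sets a larva apart in about 1 of 20 groups, and 7 larvae stood apart. In the valproic acid experiment these were the lowest AB larva at 5 µM (209 CPM), the highest PET larva at 5 µM (393 CPM), the highest TU larva at 20 µM (758 CPM) and the highest WIK larva at 1 µM (449 CPM). With hydroxyurea they were the highest untreated RW larva (349 CPM) and the lowest TU larva at 1.3 mM (225 CPM), which was also the larva with the lowest total count of all (124136), and with warfarin the lowest untreated RW larva (251 CPM).

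The response of hoxb8a to 20 µM valproic acid differed between strains by the test of strain by dose (edgeR, adjusted p = 0.0402), with values from -0.05 in WIK to 2.07 in TU. It was 1 of 38 members, where 7.49% of all genes were called. The call was lost by edgeR with the total count as a covariate (adjusted p = 0.202) and on total counts without TMM. Leaving out shallow larvae kept only larva 7 of PET at 20 µM, so that setting could not decide on the difference.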

How the results depend on the processing

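Over all 27 counts of Hox genes, 225 of 266 alternative values stayed within 1.5 times of the reported count, and of 248 alternative values of single genes 215 kept direction and side of the threshold, 28 lost the call, 4 gained it and 1 reversed. The count at 20 µM valproic acid, 13, was 8 without RW and 9 to 14 otherwise, and 1 of the 14 without shallow larvae was lower (hoxb13a). Also outside the 13, edgeR called hoxc8a with no filter (1.84, adjusted p = 0.018) and hoxb5a on total counts alone (0.41, adjusted p = 0.0352). The counts at 1 and 5 µM valproic acid, 1.3 and 6.6 mM hydroxyurea and 150 µM warfarin were 0 under every alternative. Here and below, the share of all genes called under each setting is not given, so the counts do not rank settings. The 1 reversal was hoxb5b at 33 mM hydroxyurea, without a call in any setting, with a log2 fold change of -0.0608 without TU.

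Within strains at 20 µM valproic acid, AB (0) had 4 with DESeq2, 1 with the total count as covariate, and 3 each with total counts alone and without shallow larvae. PET (1) had 2 with DESeq2, its size factors or the covariate and 3 with total counts alone. Leaving out shallow larvae kept only larva 7 of PET at 20 µM, so no PET count is given for that setting. RW (4) had 7 with total counts alone and 7 without shallow larvae. WIK (2) had 1 with the covariate and 1 without shallow larvae. The strain by dose count (1) was 4 with DESeq2, 2 with no filter, and 0 with the covariate or total counts alone. The count between untreated strains (13) was 1 with the covariate, which can also take up differences between strains.

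For 33 mM hydroxyurea (0) there were 2 with DESeq2, 2 with total counts alone, 2 without AB, 1 with DESeq2's size factors and 1 without shallow larvae. AB (0) had 1 with DESeq2 and 1 with the covariate, PET (0) had 2 with no filter, and RW (1) had 2 with DESeq2, 0 with no filter and 0 to 1 when 1 untreated larva was left out. The strain by dose count (0) was 1 with DESeq2, and that between untreated strains (1) was 0 with the covariate. For 300 µM warfarin (1) there were 4 with total counts alone, 2 with DESeq2, 2 with no filter (1 of them hoxb1a, lower), and 0 without AB or PET. The count between untreated strains (0) was 1 with DESeq2. The cause of these changes was not tested, except that fewer larvae enter the fits that leave some out. Leaving out shallow larvae removed all larvae of a strain and dose in the hydroxyurea experiment, so within-strain and interaction values were not run there. Total counts without TMM were chosen as an alternative after the data had been seen.

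Whether the larva numbers mark a shared origin cannot be told from this check. Among 86 pairs of same-numbered larvae, the correlation of deviations from group means ran from -0.125 to 0.165. In 3 pairs it was over 0.1, and in 19 pairs it was highest for the own number. The number of such pairs expected from chance was not computed, and low correlations cannot exclude a shared origin. With the larva number as a replicate block there were 12 calls at 20 µM valproic acid and 2 at 300 µM warfarin (hoxb5b and hoxc3a), and no other count left the range of 1.5 times. Depth limits all of this: 3 counts are 24.2 CPM in the shallowest larva.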
